A study of Homo sapiens with 12 samples.

Results

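HOX genes encode homeodomain transcription factors that lie side by side in 4 chromosomal clusters, HOXA to HOXD. The members described here are the genes read by a probe set whose annotation holds 1 gene symbol, made of HOXA, HOXB, HOXC or HOXD and a number. The rule found 27 genes, each with 1 probe set, among 18417 genes with such a probe set in the table. They comprised all 10 HOXB genes and all 9 HOXD genes of the RefSeq gene table of GRCh38.p14, 7 of its 9 HOXC genes and 1 of its 11 HOXA genes (HOXA2). HOXC4 and HOXC6 share a probe set that carries both symbols and were left out by the rule. The other 10 HOXA genes were not analysed here, so nothing is said of the HOXA cluster as a whole.

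In the embryo the order of HOX genes along a cluster follows the order in which they are used along the body axis, and genes of the same number in different clusters are copies of each other. HOX proteins bind DNA together with cofactors of the PBX and MEIS families, and their genes are held silent by Polycomb complexes and kept active by trithorax (MLL) complexes. Retinoic acid activates the genes at the low-numbered end of the clusters, and adult epithelia, the breast among them, keep some HOX genes active.

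RNA was measured on Affymetrix Human Gene 1.0 ST arrays in T47D-MTVL cells, a line derived from T47D breast cancer cells that expresses the progesterone receptor and carries 1 copy of the MMTV promoter. Cells received an siRNA against the chromatin remodeller CHD8 (siCHD8) or a control siRNA (siCt), spent 48 h without serum, and were then given 10 nM of the synthetic progestin R5020 or its ethanol vehicle (EtOH) for 6 h. The 4 groups were therefore siCHD8 with R5020, siCHD8 with EtOH, siCt with R5020 and siCt with EtOH, with 3 arrays each, named as biological replicates in the labels. Each siRNA arm rests on 1 siRNA sequence and all arrays on 1 cell line, and hormone was given at 1 dose and 1 time. Values are log2 intensities, and differences between groups are called log2 changes. A change was called when its adjusted p was under 0.05 in limma, adjusted by Benjamini-Hochberg over the 21214 probe sets with a gene symbol.

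CHD8 itself had log2 intensities of 4.77, 4.62 and 4.81 in siCHD8 against 5.52, 5.24 and 5.29 in siCt with R5020, and of 5.42, 5.11 and 5.04 in siCHD8 against 5.70, 5.71 and 5.91 in siCt with EtOH. All siCHD8 arrays lay below all siCt arrays of the same treatment. The log2 change was -0.62 with R5020 and -0.58 with EtOH, which did not pass the threshold in either treatment alone (adjusted p = 0.0627 and 0.0711 from limma) but did over both treatments (-0.60, SE 0.09, adjusted p = 0.00403). The hormone itself lowered the CHD8 signal, with a log2 change of -0.44 over both siRNAs (SE 0.09, adjusted p = 0.00196 by limma). Of the markers of luminal breast epithelium, 9 of 9 exceeded the 95th percentile of olfactory receptor probe sets (3.10), as did none of 4 blood markers and none of 4 endothelial markers measured. Of the basal markers 3 of 4 measured lay above that limit (ACTA2 at 6.12, KRT14 at 5.02 and KRT5 at 3.53), and of the fibroblast markers 3 of 6 (COL1A1 at 5.48, COL1A2 at 3.72 and COL3A1 at 3.40). Arrays of 1 group correlated at 0.989 to 0.996 across probe sets, and array medians lay between 4.52 and 4.62. The arrays that deviated most from their group were siCt EtOH replicate 3 and siCHD8 EtOH replicate 1.

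HOXB2, HOXC10 and HOXC13 were the HOX genes with a clear signal in these cells. Their means over the 12 arrays were 7.65, 8.03 and 6.89, and each array of each of them lay above the mean level of every one of 13 other homeobox genes. Those genes (among them CDX1, CDX2, EVX1, EVX2, GSX1, MNX1 and PDX1), most of them known from gut, pancreas or nervous system, served as a second measure of background that was added after the data were seen. They ranged from 1.85 for CDX4 to 5.86 for GSX1, with a median of 4.11. Against the olfactory receptors, whose 360 probe sets had a median of 1.86, 18 of 27 HOX genes lay above the 95th percentile, but so did 10 of the 13 other homeobox genes. The other 15 HOX genes above 3.10 therefore had levels at which homeobox genes of other tissues also read, and whether probe composition sets that level was not tested. Probe sets differ in how well they bind their target, and no order of abundance between genes is drawn from these levels.

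By cluster, HOXC had 7 of 7 members above the olfactory receptor limit, HOXB 7 of 10 and HOXD 4 of 9, and HOXA2 lay below it. All HOXD members above the limit also passed when the 99th percentile, or the siCt EtOH arrays alone, were used. HOXB8 and HOXB9 did not pass at the 99th percentile. HOXB13, HOXC5 and HOXC12 were near the limit and passed neither at the 99th percentile nor on the siCt EtOH arrays alone. HOXC5 passed through its siCHD8 arrays, of which 5 of 6 were above the limit, against 1 of 6 siCt arrays, and with EtOH it averaged 3.32 in siCHD8 and 2.99 in siCt. Members of HOXC had means of 3.17 to 8.03 with a median of 5.11, those of HOXB 1.98 to 7.65 with a median of 3.58, and those of HOXD 2.36 to 5.28 with a median of 3.01. HOXC10 and HOXC13 lie at the high-numbered end of their cluster with HOXC11 (mean 5.26) and HOXC12 (3.20) between them in the RefSeq table, and HOXB2 lies at the low-numbered end of its own, between HOXB1 (3.78) and HOXB3 (4.51). The 9 members at or under the limit were HOXA2, HOXB5, HOXB6, HOXB7, HOXD3, HOXD8, HOXD10, HOXD11 and HOXD12, with means of 1.98 for HOXB5 to 3.01 for HOXD8 and HOXD11. Of these, HOXA2, HOXB5, HOXD3 and HOXD12 exceeded 3.10 on 0 of 12 arrays. The cutoff had HOXB13 and HOXC5 just above it (3.17 each) and HOXD8 and HOXD11 just below it.

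**Figure D1:**
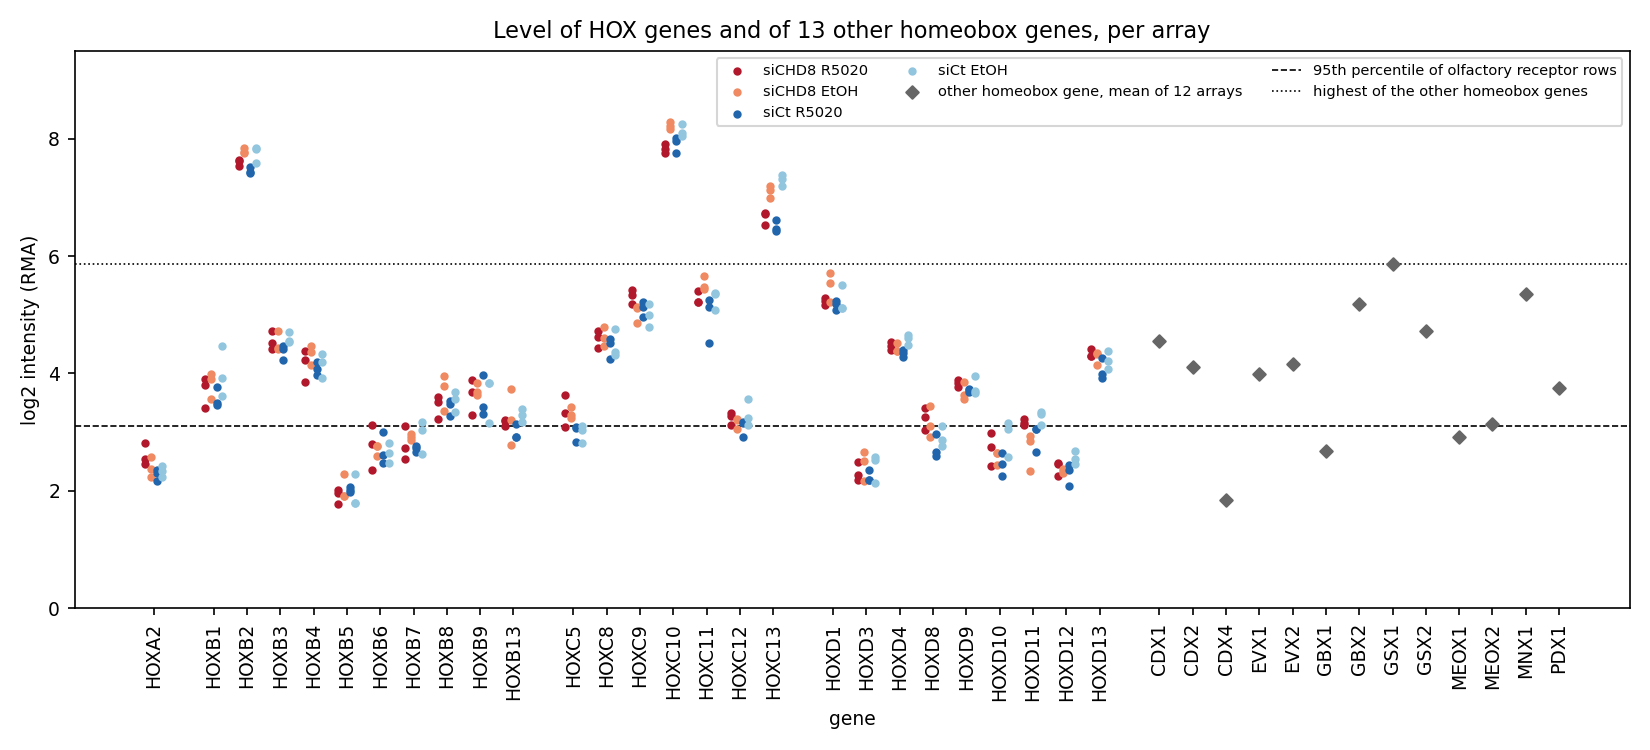
Log2 intensity of the 27 HOX genes, grouped by cluster, on each of the 12 arrays (coloured points, by group), and mean log2 intensity of 13 other homeobox genes (grey diamonds). The dashed line is the 95th percentile of olfactory receptor probe sets (3.10) and the dotted line the highest other homeobox gene (5.86), which HOXB2, HOXC10 and HOXC13 exceed on all arrays.

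The first comparison asked how HOX genes responded to the progestin. HOXC13, HOXC10 and HOXB2, the same genes that had a clear signal, were lower with R5020 than with EtOH. No HOX gene was called higher in this fit, but HOXD11 was in siCHD8 cells under some alternatives. Over both siRNAs, 3 of 27 members were called (HOXB2, HOXC10 and HOXC13), against 20.1% of all probe sets tested, and 9.72% of all were called lower. In siCHD8 cells 2 members were called, both lower (HOXC10 and HOXC13), where 11.5% of all probe sets were called and 5.43% were called lower. In siCt cells 1 member was called, also lower (HOXC13), where 14.1% of all were called and 6.00% were called lower. Counting calls in either direction, the HOX genes as a group were thus not called more often than probe sets at large. All their calls were lower, and the share of members called lower was near that of all probe sets.

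HOXC13, a factor that controls keratin genes of hair and nail, had values of 6.71, 6.74 and 6.53 with R5020 against 7.12, 7.19 and 6.99 with EtOH in siCHD8 cells. In siCt cells it had 6.43, 6.46 and 6.61 with R5020 against 7.31, 7.20 and 7.39 with EtOH. All R5020 arrays lay below all EtOH arrays in both arms, and the siCt arrays with EtOH were the highest of all. HOXC13 averaged 6.66 ± 0.11 with R5020 and 7.10 ± 0.11 with EtOH in siCHD8 cells, and 6.50 ± 0.10 with R5020 and 7.30 ± 0.10 with EtOH in siCt cells (SD, n = 3 each). The signal with R5020 was 73.7% of that with EtOH in siCHD8 cells, for a log2 change of -0.44 (SE 0.11; limma, adjusted p = 0.014), and 57.6% in siCt cells, for one of -0.80 (SE 0.11; limma, adjusted p = 9.87e-05). In siCt cells it was also the 1 HOX gene that passed the study's own limits, a fold above 1.5 at an adjusted p below 0.01, which 6.55% of all probe sets passed. The call in siCt cells held under all 22 alternatives run, with log2 changes from -0.87 to -0.74. The call in siCHD8 cells was lost without siCHD8 EtOH replicate 2 (adjusted p = 0.0591 from limma) and without siCHD8 R5020 replicate 3 (adjusted p = 0.081).

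HOXC10, known in mice for patterning the lumbar spinal cord and hindlimb motor neurons, had 7.91, 7.82 and 7.76 with R5020 against 8.29, 8.22 and 8.16 with EtOH in siCHD8 cells. In siCt cells it had 8.01, 7.75 and 7.97 with R5020 against 8.09, 8.26 and 8.05 with EtOH. The treatments did not overlap in either arm, though in siCt cells the gap between the nearest arrays was small. The log2 change was -0.40 in siCHD8 cells (SE 0.11, adjusted p = 0.0249 from limma) and -0.22 in siCt cells (SE 0.11, adjusted p = 0.196, not called). Over both siRNAs it was -0.31 (SE 0.08, adjusted p = 0.00853 from limma), or 80.7% of the EtOH signal. The call in siCHD8 cells was lost when any of 4 arrays was left out, namely siCHD8 EtOH replicate 1 (adjusted p = 0.0681 from limma), siCHD8 EtOH replicate 2 (0.0618), siCHD8 R5020 replicate 2 (0.0815) and siCHD8 R5020 replicate 3 (0.106). The call over both siRNAs held under all 21 alternatives run.

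HOXB2, a hindbrain patterning gene in mice, had 7.54, 7.63 and 7.62 with R5020 against 7.85, 7.75 and 7.77 with EtOH in siCHD8 cells. In siCt cells it had 7.44, 7.41 and 7.52 with R5020 against 7.83, 7.84 and 7.58 with EtOH. The R5020 arrays were the lower ones in both arms with no overlap, and siCt EtOH replicate 3 sat closest to them. The log2 change was -0.20 in siCHD8 cells (SE 0.10, adjusted p = 0.288 from limma) and -0.29 in siCt cells (SE 0.10, adjusted p = 0.0711), neither of them called. Over both siRNAs it was -0.24 (SE 0.07, adjusted p = 0.0257 from limma), or 84.4% of the EtOH signal. This call was lost after median centring of the arrays (adjusted p = 0.0749 from limma) and without any 1 of 5 arrays, siCt EtOH replicates 1 and 2, siCt R5020 replicates 1 and 2 and siCHD8 R5020 replicate 1 (adjusted p = 0.0574 to 0.0662). In siCt cells, by contrast, it was called without siCt EtOH replicate 3, which raised the count of members there to 2.

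**Figure D2:**
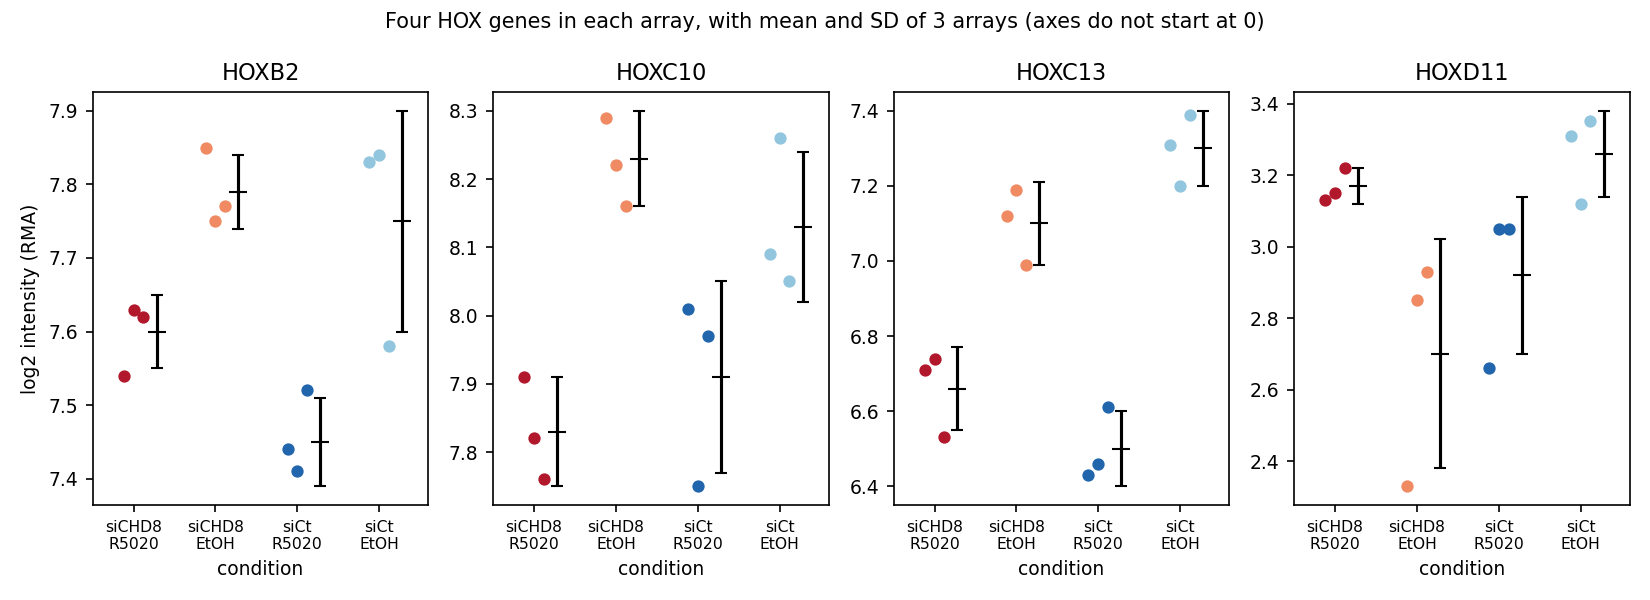
Log2 intensity of HOXB2, HOXC10, HOXC13 and HOXD11 on each array (points) in the 4 groups, with the mean and SD of 3 arrays (black bars), each panel on its own axis that does not start at 0. R5020 arrays lie below EtOH arrays in both arms for HOXB2, HOXC10 and HOXC13, and above them in siCHD8 but below them in siCt for HOXD11.

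The remaining HOXB genes above the olfactory receptor limit showed no called response in this fit, though HOXB1, HOXB8 and HOXB13 were called under some alternatives. HOXB1, a hindbrain gene, had 3.90, 3.41 and 3.80 with R5020 against 3.56, 3.90 and 3.99 with EtOH in siCHD8 cells, and 3.50, 3.46 and 3.77 with R5020 against 4.47, 3.62 and 3.93 with EtOH in siCt cells. Its siCt EtOH replicate 1 stood above all its other arrays, and the treatments overlapped in both arms. It was called lower in siCt cells only without siCt EtOH replicate 2, when HOXD10 was called as well and the count of members rose to 3. HOXB3 had 4.72, 4.52 and 4.41 with R5020 against 4.44, 4.42 and 4.73 with EtOH in siCHD8 cells, and 4.42, 4.46 and 4.23 with R5020 against 4.70, 4.53 and 4.56 with EtOH in siCt cells. The treatments were apart in siCt cells only, where the log2 change was -0.22 (adjusted p = 0.252 from limma). HOXB4, which expands blood stem cells when it is overexpressed, had 3.86, 4.23 and 4.38 with R5020 against 4.14, 4.37 and 4.46 with EtOH in siCHD8 cells, and 4.07, 3.98 and 4.19 with R5020 against 4.19, 3.93 and 4.34 with EtOH in siCt cells. Its treatments overlapped in both arms.

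HOXB8 had 3.60, 3.52 and 3.22 with R5020 against 3.36, 3.96 and 3.79 with EtOH in siCHD8 cells, and 3.27, 3.48 and 3.53 with R5020 against 3.69, 3.56 and 3.35 with EtOH in siCt cells. HOXB9, which acts in the mammary gland of mice together with its copies in other clusters, had 3.68, 3.29 and 3.89 with R5020 against 3.63, 3.83 and 3.69 with EtOH in siCHD8 cells, and 3.31, 3.43 and 3.97 with R5020 against 3.84, 3.16 and 3.83 with EtOH in siCt cells. Both genes had overlapping treatments in both arms. HOXB13, a prostate lineage factor, had 3.10, 3.21 and 3.19 with R5020 against 2.78, 3.74 and 3.20 with EtOH in siCHD8 cells, and 3.14, 2.91 and 2.92 with R5020 against 3.39, 3.17 and 3.29 with EtOH in siCt cells. It lay at the limit itself, with 9 of its 12 arrays above 3.10 and the treatments apart in siCt cells only.

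In the HOXC cluster, HOXC9, which specifies thoracic motor neurons in mice, ran the other way from its neighbour HOXC10. It had 5.33, 5.43 and 5.18 with R5020 against 5.14, 4.86 and 5.11 with EtOH in siCHD8 cells, and 4.97, 5.22 and 5.14 with R5020 against 4.99, 5.18 and 4.79 with EtOH in siCt cells. Its R5020 arrays were all above its EtOH arrays in siCHD8 cells and overlapped them in siCt cells, and the log2 change over both siRNAs was 0.20 (SE 0.09, adjusted p = 0.153 from limma, not called). HOXC11 had 5.22, 5.41 and 5.22 with R5020 against 5.66, 5.44 and 5.47 with EtOH in siCHD8 cells, and 5.13, 4.52 and 5.25 with R5020 against 5.35, 5.38 and 5.09 with EtOH in siCt cells. Its siCt R5020 replicate 2 was its lowest array by far, and the log2 change over both siRNAs was -0.27 (SE 0.11, adjusted p = 0.112 from limma, not called).

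HOXC12 had 3.12, 3.33 and 3.27 with R5020 against 3.06, 3.23 and 3.20 with EtOH in siCHD8 cells, and 2.92, 3.16 and 3.17 with R5020 against 3.57, 3.24 and 3.12 with EtOH in siCt cells. HOXC8, a gene of brachial motor neurons in mice, had 4.44, 4.63 and 4.72 with R5020 against 4.60, 4.47 and 4.80 with EtOH in siCHD8 cells, and 4.25, 4.58 and 4.52 with R5020 against 4.32, 4.75 and 4.36 with EtOH in siCt cells. HOXC5 had 3.63, 3.09 and 3.33 with R5020 against 3.30, 3.24 and 3.43 with EtOH in siCHD8 cells, and 3.08, 3.07 and 2.84 with R5020 against 3.04, 3.11 and 2.82 with EtOH in siCt cells. The treatments of these HOXC genes overlapped in both arms, and the hormone log2 change of HOXC5 was close to 0 in both (0.03 in siCHD8 and 0.01 in siCt).

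In the HOXD cluster, HOXD1 had 5.28, 5.17 and 5.23 with R5020 against 5.21, 5.72 and 5.55 with EtOH in siCHD8 cells, and 5.09, 5.18 and 5.23 with R5020 against 5.51, 5.12 and 5.11 with EtOH in siCt cells. HOXD4 had 4.46, 4.53 and 4.40 with R5020 against 4.39, 4.52 and 4.39 with EtOH in siCHD8 cells, and 4.28, 4.35 and 4.40 with R5020 against 4.60, 4.48 and 4.65 with EtOH in siCt cells. HOXD1 overlapped between treatments in both arms, and HOXD4 was lower with R5020 in siCt cells without overlap (log2 change -0.24, adjusted p = 0.132 from limma). HOXD9 had 3.84, 3.77 and 3.89 with R5020 against 3.63, 3.86 and 3.56 with EtOH in siCHD8 cells, and 3.68, 3.73 and 3.72 with R5020 against 3.95, 3.71 and 3.67 with EtOH in siCt cells. HOXD13, which patterns the digits, had 4.30, 4.42 and 4.29 with R5020 against 4.14, 4.35 and 4.33 with EtOH in siCHD8 cells, and 3.93, 4.27 and 3.99 with R5020 against 4.21, 4.08 and 4.38 with EtOH in siCt cells. Both overlapped between treatments in both arms.

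**Figure D3:**
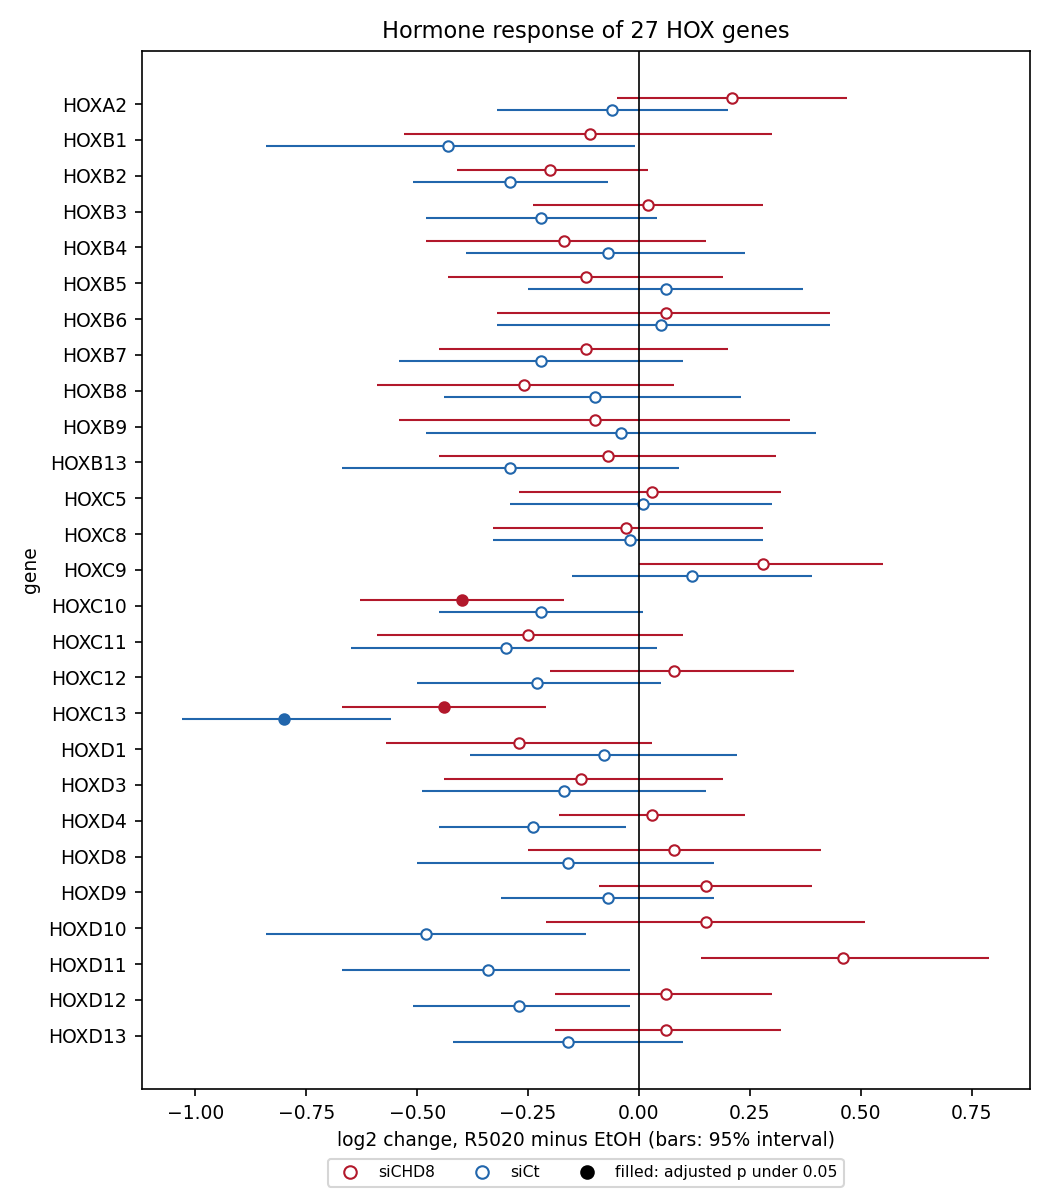
Log2 change (R5020 minus EtOH) of each HOX gene in siCHD8 cells (red) and siCt cells (blue), with its 95% interval from limma over 3 against 3 arrays. Filled points, HOXC10 and HOXC13 in siCHD8 and HOXC13 in siCt, had an adjusted p under 0.05.

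The direction of the small changes differed between the arms. In siCHD8 cells 14 of 27 members were lower with R5020 (51.9%, against 54.0% of all probe sets tested), with a median log2 change of -0.03 for the members and -0.02 for all. In siCt cells 23 of 27 were lower (85.2%, against 58.8% of all), with medians of -0.17 for the members and -0.05 for all. The 13 other homeobox genes had medians of 0.01 in siCHD8 and -0.20 in siCt, and olfactory receptor probe sets 0.00 and -0.08. Of the 18 members above the olfactory receptor limit, 11 were lower in siCHD8 and 16 in siCt. Of the 9 not above it, 3 were lower in siCHD8 and 7 in siCt. The source of the lean in siCt cells was not tested. Arrays did not overlap, with R5020 lower, for 4 members in siCHD8 (HOXB2, HOXC10, HOXC11 and HOXC13, against 14.2% of all probe sets) and for 8 in siCt (HOXB2, HOXB3, HOXB13, HOXC10, HOXC13, HOXD4, HOXD11 and HOXD12, against 18.7%). They did so in both arms for HOXB2, HOXC10 and HOXC13, where 6.73% of all probe sets did. Of 9 luminal markers 6 were called lower with R5020 in siCHD8, against 5.43% of all probe sets, and 5 in siCt, against 6.00%. Among them were FOXA1 (log2 changes of -1.41 and -1.65) and PGR, the progesterone receptor gene (-1.50 and -1.23). The CDH1 call in siCHD8 (-0.36, adjusted p = 0.0387 from limma) was lost without any 1 of 8 arrays. The KRT18 call in siCt (-0.56, adjusted p = 0.0142 from limma) was lost without any 1 of 3. KRT8, KRT19 and EPCAM were called in neither arm. KRT19 had log2 changes of 0.30 in siCHD8 and -0.09 in siCt and EPCAM -0.17 and 0.06. Of the basal markers KRT14 and of the fibroblast markers COL1A1 were called lower over both siRNAs (-0.40 and -0.35), where 9.72% of all probe sets were. Another basal marker, ACTA2, was called lower for the CHD8 siRNA over both treatments (-0.66, adjusted p = 0.00196 from limma), where 1.76% of all were called. The luminal marker PGR was called lower there as well (-0.33, adjusted p = 0.0464 from limma), a call lost without any 1 of 10 arrays. The part of such shifts in the HOX values was not tested.

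The second comparison asked whether the hormone response depended on CHD8. The difference of the responses, siCHD8 minus siCt, was called for 0 of 27 members and for 0.00% of all probe sets by limma, whose lowest adjusted p over all was 0.356. At an unadjusted p under 0.05 there were 3 members, HOXC13, HOXD10 and HOXD11, against 9.6% of all probe sets. HOXC13 had a response smaller in siCHD8 by a log2 difference of 0.36 (95% interval 0.03 to 0.68, adjusted p = 0.508 by limma), so a weaker response was not shown by this test. The study used another rule for CHD8 dependence, a limit on the ratio of the hormone changes in siCHD8 and siCt, and states no test for it. That ratio was 127.9% for HOXC13, which passes the study's limit. For HOXC10 the difference was -0.18 (95% interval -0.50 to 0.15) and for HOXB2 0.10 (95% interval -0.21 to 0.41). With 3 arrays a group the SE of such a difference had a median of 0.19 over all probe sets, against 0.13 for 1 response.

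HOXD11, known in mice for forearm and kidney development, was the member with the largest difference and the only one whose arrays moved without overlap in opposite directions, as 0.707% of all probe sets did. It had 3.13, 3.15 and 3.22 with R5020 against 2.33, 2.85 and 2.93 with EtOH in siCHD8 cells, and 2.66, 3.05 and 3.05 with R5020 against 3.31, 3.12 and 3.35 with EtOH in siCt cells. Its siCHD8 EtOH replicate 1 was its lowest array, and that array is one of those that deviated most over all probe sets. The log2 change was 0.46 in siCHD8 and -0.34 in siCt (adjusted p = 0.0661 and 0.158 from limma, neither called). In siCHD8 cells it was called higher after median centring, after a second quantile normalization, with the replicate number as a block and without siCHD8 EtOH replicate 3. Between the arms the difference was 0.81 (95% interval 0.35 to 1.27, adjusted p = 0.49 by limma). Without any 1 array the difference lay between 0.62 and 0.92. The level of HOXD11 was under the olfactory receptor limit on 6 of 12 arrays, so this is a change among values near background. Its neighbour HOXD10, also under the limit, had 2.75, 2.99 and 2.42 with R5020 against 2.64, 2.64 and 2.44 with EtOH in siCHD8 cells, and 2.46, 2.65 and 2.25 with R5020 against 3.15, 2.58 and 3.06 with EtOH in siCt cells. These overlapped in both arms, with a difference of 0.62 (SE 0.24, adjusted p = 0.499 from limma). HOXD10 and HOXD11 are described here because of their values.

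The third comparison asked whether the CHD8 siRNA alone moved HOX genes. It called 0 of 27 members with R5020 (against 0.189% of all probe sets), 0 with EtOH (0.292% of all) and 0 over both treatments (1.76% of all) by limma. At an unadjusted p under 0.05 there were 4 members with R5020 (HOXA2, HOXC5, HOXD8 and HOXD13), 2 with EtOH (HOXC5 and HOXD11) and 4 over both (HOXA2, HOXC5, HOXC11 and HOXD8), against 13.9%, 12.1% and 15.5% of all probe sets. The genes with a clear signal moved little. Over both treatments the log2 change, siCHD8 minus siCt, was 0.09 for HOXB2 (95% interval -0.06 to 0.25), 0.01 for HOXC10 (95% interval -0.16 to 0.17) and -0.02 for HOXC13 (95% interval -0.18 to 0.14). HOXB2 had siCHD8 arrays all above its siCt arrays with R5020 (0.14, adjusted p = 0.563 from limma) and overlapped with EtOH (0.04). HOXC13 differed in sign between treatments, with 0.16 with R5020, where the arrays overlapped, and -0.20 with EtOH, where the siCHD8 arrays were all lower (adjusted p = 0.534 and 0.496 from limma).

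HOXC5 came nearest to a call. Its siCHD8 arrays, 3.63, 3.09 and 3.33 with R5020 and 3.30, 3.24 and 3.43 with EtOH, lay above its siCt arrays of the same treatment, 3.08, 3.07 and 2.84 with R5020 and 3.04, 3.11 and 2.82 with EtOH. The treatments gave the same size, a log2 change of 0.35 with R5020 and 0.33 with EtOH, and over both it was 0.34 (SE 0.10, unadjusted p = 0.00328, adjusted p = 0.0955 from limma). HOXC5 lay at the background limit, with 6 of 12 arrays above it. The probe set shared by HOXC4 and HOXC6, next to HOXC5 in the cluster, lay between 5.24 and 5.27 in siCHD8 against 4.79 and 5.12 in siCt with R5020, and between 5.26 and 5.35 in siCHD8 against 5.09 and 5.30 in siCt with EtOH. It was apart with R5020 only and was not called over both (log2 change 0.19, SE 0.08, adjusted p = 0.232 from limma).

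HOXD8, below the limit, had 3.04, 3.26 and 3.42 in siCHD8 against 2.67, 2.97 and 2.59 in siCt with R5020, and 3.11, 2.92 and 3.44 in siCHD8 against 2.76, 3.11 and 2.86 in siCt with EtOH. The siRNAs were apart with R5020 and overlapped with EtOH, and the log2 change over both was 0.37 (SE 0.11, adjusted p = 0.108 from limma). With R5020, 25 of 27 members were higher in siCHD8 (7.4% lower, against 47.8% of all probe sets), with a median log2 change of 0.14 for the members and 0.01 for all. With EtOH 16 of 27 were higher, with a median of 0.05 for the members and -0.01 for all. With R5020 the 13 other homeobox genes had a median of 0.24 and olfactory receptor probe sets one of 0.07. This comparison and the hormone response in siCt cells share the siCt R5020 arrays, so the shift to higher values here and the shift to lower values there are not separate observations.

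**Figure D4:**
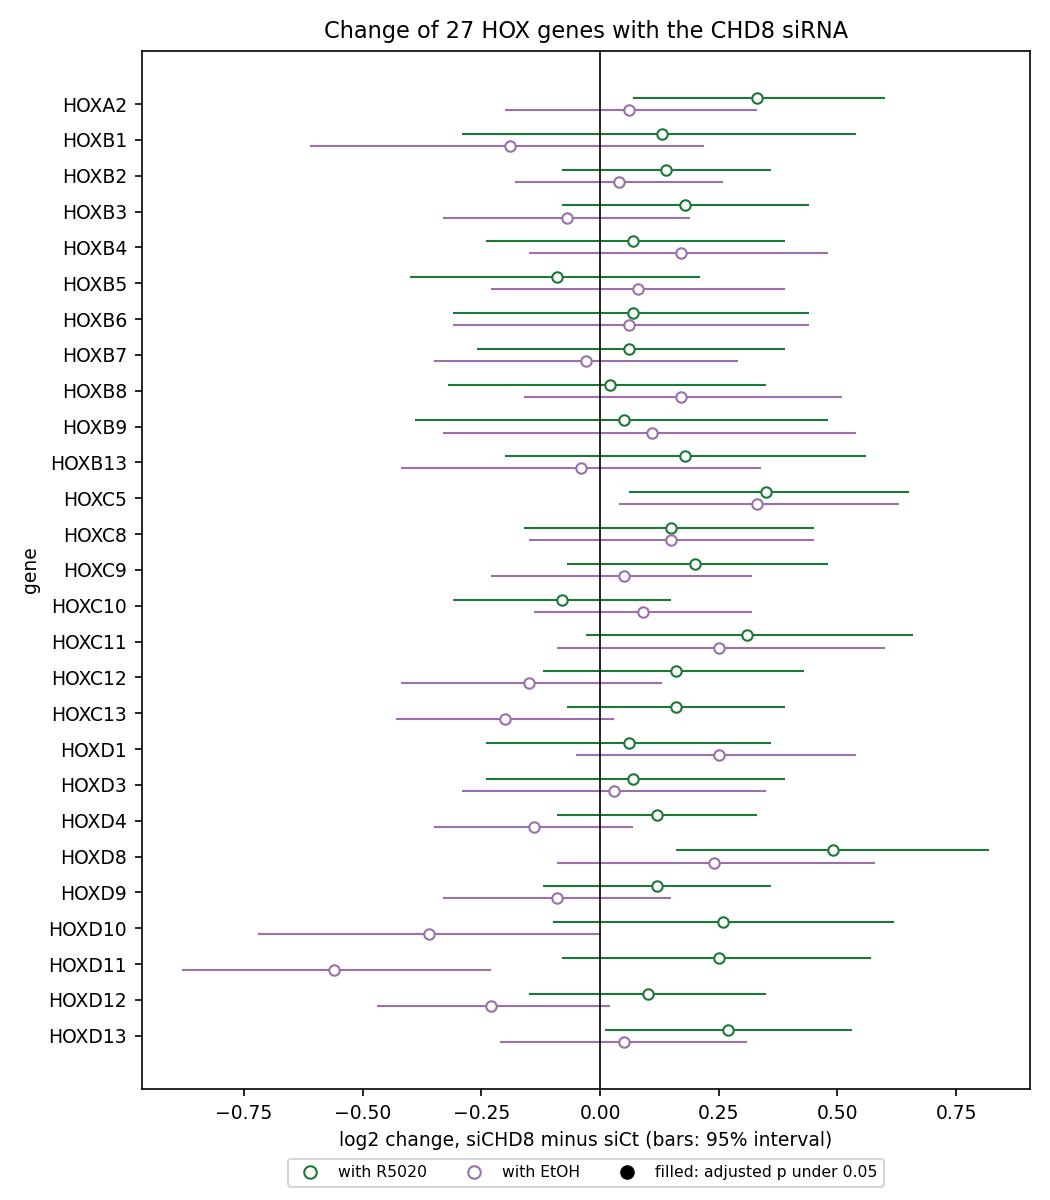
Log2 change (siCHD8 minus siCt) of each HOX gene with R5020 (green) and with EtOH (purple), with its 95% interval from limma over 3 against 3 arrays. No point is filled, since no member had an adjusted p under 0.05, and 25 of 27 members lie above 0 with R5020.

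Genes that work with or on HOX genes were read from the same fit. Of the PBX, MEIS and related cofactors 7 of 9 were measured, and PBX3, which binds DNA together with HOX proteins, fell with R5020 in both arms, by log2 changes of -0.63 in siCHD8 and -0.64 in siCt (adjusted p = 0.000386 and 0.000311 from limma). Its values were 6.59, 6.69 and 6.80 with R5020 against 7.40, 7.28 and 7.30 with EtOH in siCHD8, and 6.61, 6.58 and 6.66 with R5020 against 7.23, 7.31 and 7.22 with EtOH in siCt, wide apart in both. MEIS2, a cofactor of the same class with a mean level of 3.56, was called lower over both siRNAs (-0.46, adjusted p = 0.00475 from limma). Over both siRNAs 2 of the 7 cofactors were called, against 20.1% of all probe sets. The other 5 cofactors were not called, and none of the 7 was called for the CHD8 siRNA.

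Polycomb genes moved in both directions with the hormone. Of 23 measured subunits of 27 listed, 3 rose and 4 fell with R5020 in siCHD8, where 11.5% of all probe sets were called, and 5 rose and 4 fell in siCt, where 14.1% were. In siCHD8 the calls of AEBP2, CBX2 and CBX7 were lost without any 1 of 5, 8 and 2 arrays. In siCt those of EZH2, MTF2, PHF1 and PHC1 were lost without any 1 of 2, 3, 3 and 4. PHF19, an accessory subunit of Polycomb complex PRC2, rose by log2 changes of 1.02 in siCHD8 and 0.86 in siCt, and RBBP7, a histone-binding subunit, by 0.72 in both. Over both siRNAs 6 subunits rose and 7 fell, where 20.1% of all probe sets were called. EZH2, the histone methyltransferase of PRC2, rose (0.48, adjusted p = 0.00242 from limma). SUZ12, another PRC2 subunit, fell (-0.27, adjusted p = 0.0217 from limma), a call lost without siCHD8 R5020 replicate 3. PCGF2 and CBX6, subunits of PRC1, fell in both arms (-0.54 and -0.62 in siCHD8, -0.78 and -0.59 in siCt). For the CHD8 siRNA, PHF19 was the 1 subunit called, lower over both treatments (-0.32, adjusted p = 0.0382 from limma), and this call was kept only when siCHD8 EtOH replicate 1 was left out and lost without any 1 of the other 11 arrays (adjusted p up to 0.12). The median of the 23 was -0.05 in siCHD8 and -0.03 in siCt, near the medians of all probe sets (-0.02 and -0.05).

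Of 12 trithorax, MLL and H3K27 demethylase genes, 1 was called in siCHD8 (KMT2C, a histone H3K4 methyltransferase), against 11.5% of all probe sets, and none in siCt, against 14.1%. The KMT2C call in siCHD8 (-0.64, adjusted p = 0.02 from limma) was lost without siCHD8 EtOH replicate 1, siCHD8 R5020 replicate 1 or siCHD8 R5020 replicate 3 (adjusted p up to 0.0853). Over both siRNAs, where 20.1% of all probe sets were called, 4 of the 12 were called lower, and KMT2A (-0.36) and KMT2C (-0.55) kept the call without any 1 array. KMT2B (-0.28) lost it without siCt R5020 replicate 3, siCHD8 R5020 replicate 1 or siCHD8 R5020 replicate 3. KMT2D (-0.48, adjusted p = 0.049 from limma) lost it without any 1 of 9 arrays. Its siCt EtOH replicate 3, at 7.43, stood above the 6.42 and 6.30 of the other siCt EtOH arrays, and without it the log2 change was -0.30 (adjusted p = 0.0538). That array was also the highest of its group for KMT2A (7.12 against 6.72 and 6.75) and KMT2C (7.40 against 6.67 and 6.80), whose log2 changes without it were -0.30 and -0.44.

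Of 14 measured retinoid genes, 1 rose and 2 fell with R5020 in siCHD8, against 11.5% of all probe sets called, and none rose and 3 fell in siCt, against 14.1%. The genes called lower were RARG and DHRS3 (-0.48) in siCHD8, and RARG, RXRB (-0.48) and CRABP2 (-0.51) in siCt. The DHRS3 call was lost without any 1 of 3 arrays and the RXRB call without siCt R5020 replicate 3. RARG, a retinoic acid receptor, fell in both arms (-0.42 in siCHD8 and -0.70 in siCt). ALDH1A3, an enzyme that makes retinoic acid, rose in siCHD8 (0.77, adjusted p = 0.000104 from limma) and was not called in siCt (0.30, adjusted p = 0.068). Over both siRNAs ALDH1A3 rose by 0.53 (adjusted p = 5.9e-05 from limma), and the difference of responses was called for 0 of the 14 genes. With EtOH, ALDH1A3 was lower in siCHD8 than in siCt (-0.60, adjusted p = 0.0282 from limma), a call lost without any 1 of 9 arrays (adjusted p up to 0.0888). Of the 13 other homeobox genes, MEOX1 was called higher with R5020 in siCHD8 (0.50, adjusted p = 0.019 from limma) at a level of 2.91, under the olfactory receptor limit, and none was called in siCt. That call was lost without siCHD8 EtOH replicate 1, siCHD8 EtOH replicate 2 or siCHD8 R5020 replicate 1 (adjusted p up to 0.108). GBX2 was called lower over both siRNAs (-0.31, adjusted p = 0.0262 from limma), a call lost without any 1 of 6 arrays.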

How the data were processed

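The authors hybridised RNA to Affymetrix Human Gene 1.0 ST arrays and deposited log2 intensities normalized by RMA, which corrects background, equalises array distributions by quantiles and sums up the probes of a probe set. The sources used here do not give the version, probe set definition and build. The values were used as deposited. Of 33297 probe sets, 21214 with a gene symbol in the platform annotation were tested. In R 4.3.3, limma 3.58.1 (lmFit, then contrasts.fit and eBayes) estimated a mean for each group from the 12 arrays and 7 contrasts between them, with Benjamini-Hochberg adjustment over all probe sets tested. The fit was checked on simulated data. P-values set a difference between groups against the spread of arrays within groups, and the number of arrays limits the precision. Symbols of the 27 HOX genes matched RefSeq (GRCh38.p14), used for names and neighbours only.

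HOX genes above the olfactory receptor limit or called in any contrast were named with all values. Of the other lists, some of the called genes were named, but not all. Members and lists were chosen with earlier results of these data known. HOXD8, HOXD10 and HOXD11 were described after their values were seen. Alternatives were median centring, a second quantile normalization, other filters, a trended and robust variance, array weights, the compared groups alone, the replicate block, other thresholds, other backgrounds and leaving out arrays. The homeobox background was added after seeing the data, as were leaving out siCt EtOH replicate 3 with siCHD8 EtOH replicate 1, and leaving out arrays for the genes of the other lists.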

Additional observations from a re-analysis of the deposited data

Results flagged for a closer look

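HOXD11 had hormone responses of opposite direction in the 2 siRNA arms, with all R5020 arrays above all EtOH arrays in siCHD8 cells and all below them in siCt cells. The log2 difference between the responses was 0.81 (SE 0.22), with an unadjusted p of 0.00204 and an adjusted p of 0.49 from limma, which is not called. The adjusted p lay between 0.229 and 0.767 over the alternatives. Its mean level of 3.01 was under the olfactory receptor limit of 3.10.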

How the results depend on the processing

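No change of a called gene turned its sign under any alternative run. In siCt cells the hormone called 1 HOX gene, and 3 after a second quantile normalization, 2 with dim probe sets left out, 2 with a trended and robust variance, 2 with array weights and 3 at an adjusted p under 0.1. HOXC13 was among them each time, and HOXB2 was the gene most often added. Leaving out single arrays gave 1 to 3 genes. In siCHD8 cells it called 2, and 0 at an adjusted p under 0.01, with 0 to 3 when single arrays were left out. HOXD11 was added to them, as higher, after median centring, after a second quantile normalization, at an adjusted p under 0.1 and without siCHD8 EtOH replicate 3, giving 3. With siCt EtOH replicate 3 and siCHD8 EtOH replicate 1 left out together, the counts were 2 in siCt, 1 in siCHD8 and 5 over both siRNAs, where 3 had been called. The genes added over both siRNAs were HOXB8 and HOXD1. Over both siRNAs HOXD1 was also added with array weights, HOXB13 without siCHD8 EtOH replicate 1 and HOXC11 without siCt R5020 replicate 3. The siRNA comparison over both treatments called 0, and 1 (HOXC5) at an adjusted p under 0.1. HOX genes above background numbered 18, but 21 at the 90th and 13 at the 99th percentile of olfactory receptors, and 15 on the siCt EtOH arrays alone. They numbered 6 above the median of all probe sets tested and 3 above the highest other homeobox gene. The labels do not say whether the replicate numbers pair the arrays. Deviations of same-numbered arrays correlated at -0.25 to 0.20 over 18 pairs and exceeded 0.1 in 4. Arrays of different numbers were not compared, so these values cannot decide the pairing. With the replicate block the counts were 1 in siCt, 3 in siCHD8 (HOXD11 added) and 3 over both siRNAs, and 0 for each siRNA comparison and for the difference of responses. A mean over all probe sets of a gene could not differ from the value used, since each HOX gene had 1. The spread of 3 arrays limits what could be called, with a median SE of 0.13.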
